A study of Mus musculus with 10 samples.

Results

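The fibrillar collagens and the enzymes and chaperones that process them were followed as 10 listed genes, chosen by symbol. They were the collagen chain genes Col1a1, Col1a2, Col3a1, Col5a1 and Col5a2, and Bmp1, Lox, Serpinh1, Plod2 and Pcolce. These genes and the gene lists used below were chosen with earlier results of these data known. Shares over all genes are therefore given for scale and not as a test of an excess. All 10 matched an Ensembl ID among the 22713 gene IDs of the mouse embryonic stem (ES) cell tables, and all 10 passed the filter on low values in both tables. mRNA was sequenced in 8 libraries. Pontinf/f; CreER ES cells, derived from blastocysts and carrying floxed Pontin alleles and a CreER transgene that 4-hydroxy tamoxifen (OHT) activates, gave 1 library without treatment (WT), 1 at 3 days after OHT (OHT 3D) and 1 at 4 days (OHT 4D). ZHBTc4 ES cells, in which tetracycline (Tc) shuts off Oct4, gave 1 library at 2 days of Tc (Tc 2D). ZHBTc4 cells without Tc, 4 days after infection with pLKO lentivirus and under puromycin selection, gave 2 control shRNA libraries and 2 libraries in which an shRNA targeted the lincRNA linc1253. 1 Pontin ChIP-seq library and 1 GFP ChIP-seq library came from untreated ZHBTc4 cells. All cells were cultured in serum with leukaemia inhibitory factor. The study states that its ES cells were grown either on mouse embryonic fibroblast feeders or without feeders, but not which library had which.

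Fibrillar collagens are secreted as procollagen, a triple helix of 3 chains with a propeptide at each end. In the endoplasmic reticulum, lysyl hydroxylases such as the Plod2 product modify the chains and the chaperone HSP47, encoded by Serpinh1, holds the folded helix. Outside the cell, the protease encoded by Bmp1 cuts off the C-terminal propeptide, the Pcolce product enhances that cut, and lysyl oxidase, encoded by Lox, starts the covalent cross-links between collagen molecules in the fibrils. Type I collagen (Col1a1 and Col1a2) and type III collagen (Col3a1) are abundant products of fibroblasts and other mesenchymal cells, and type V collagen (Col5a1 and Col5a2) co-assembles with type I. ES cells are not known as a major source of fibrillar collagen.

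The libraries held between 17187595 (OHT 3D) and 37951742 (shRNA linc1253 replicate 1) reads on genes. Normalised read counts are given in CPM, and the 4 libraries of WT, OHT 3D, OHT 4D and Tc 2D were normalised apart from the 4 shRNA libraries. The study states that WT, OHT 3D, OHT 4D and Tc 2D were sequenced on a different Illumina instrument model from the shRNA and ChIP libraries. Pontin, listed as Ruvbl1, was at 198 CPM in WT, 33.3 CPM at OHT 3D and 50.9 CPM at OHT 4D. It was at 85.0 CPM at Tc 2D, and at 166 and 186 CPM in the shRNA control libraries. Oct4, listed as Pou5f1, was at 301 CPM in WT, 21.1 CPM at Tc 2D, and 642 and 582 CPM in the shRNA control libraries. The summed level of 18 pluripotency markers was 4703 CPM in WT, 4529 and 4982 CPM at OHT 3D and OHT 4D, 970.1 CPM at Tc 2D and between 7130.0 and 7964.5 CPM in the shRNA libraries. linc1253 itself was not analysed here. The libraries of shRNA linc1253 replicates 1 and 2 differed in several of the members, and their values are given apart.

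Promoter sequences of 5 members were found in the RefSeq table used here (GRCm38.p6, from 250 bases before to 50 bases after the start site), and Col1a1, Col5a2, Bmp1, Lox and Plod2 were not among them. The promoters of 4 members are shown because their genes behaved differently: Col1a2 and Col3a1 were higher together after OHT, Col5a1 had the highest ratio of Pontin to GFP reads among the promoters with a sequence, and Serpinh1 was already high in WT. The sequences run 5′ to 3′ on the strand of the gene, Col1a2 at chr6:4505368-4505667 on the plus strand, Col3a1 at chr1:45311288-45311587 on the plus strand, Col5a1 at chr2:27886175-27886474 on the plus strand, and Serpinh1 at chr7:99353190-99353489 on the minus strand. Capitals mark matches, on either strand, to CCAAT (the CCAAT box), ACGTG (the core that hypoxia-inducible factors are known to bind), GGGCGG (the GC box) and TATAAA (the TATA box); no match overlapped another.
Col1a2: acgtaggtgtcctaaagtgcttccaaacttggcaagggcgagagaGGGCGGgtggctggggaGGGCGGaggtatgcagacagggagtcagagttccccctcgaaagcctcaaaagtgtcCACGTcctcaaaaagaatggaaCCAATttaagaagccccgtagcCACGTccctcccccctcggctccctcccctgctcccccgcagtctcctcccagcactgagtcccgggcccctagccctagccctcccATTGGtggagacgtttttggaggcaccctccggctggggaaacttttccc
Col3a1: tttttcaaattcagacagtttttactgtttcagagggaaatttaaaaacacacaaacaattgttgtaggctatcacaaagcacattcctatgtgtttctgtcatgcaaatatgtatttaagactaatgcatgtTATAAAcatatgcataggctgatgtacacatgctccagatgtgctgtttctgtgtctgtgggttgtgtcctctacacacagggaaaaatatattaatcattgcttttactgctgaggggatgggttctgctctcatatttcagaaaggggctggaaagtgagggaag
Col5a1: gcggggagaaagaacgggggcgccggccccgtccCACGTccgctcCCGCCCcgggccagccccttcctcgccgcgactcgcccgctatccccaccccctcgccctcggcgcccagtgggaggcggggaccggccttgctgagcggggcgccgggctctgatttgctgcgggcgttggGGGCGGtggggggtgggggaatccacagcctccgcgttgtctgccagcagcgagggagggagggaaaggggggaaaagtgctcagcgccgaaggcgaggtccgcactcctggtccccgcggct
Serpinh1: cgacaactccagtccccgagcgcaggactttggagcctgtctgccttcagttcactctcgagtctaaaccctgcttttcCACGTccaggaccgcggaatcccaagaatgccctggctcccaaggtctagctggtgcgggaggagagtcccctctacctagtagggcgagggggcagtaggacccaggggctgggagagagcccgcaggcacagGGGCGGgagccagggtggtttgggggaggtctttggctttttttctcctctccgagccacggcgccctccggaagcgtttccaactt
The Col1a2 promoter held 2 matches to CCAAT, 2 to ACGTG and 2 to GGGCGG. The Col3a1 promoter held 1 match to TATAAA and none to the other motifs. Col5a1 held 1 match to ACGTG and 2 to GGGCGG, and Serpinh1 1 to each of these. Among all 32851 promoters of the table, 37.4% held CCAAT, 19.6% ACGTG, 35.7% GGGCGG and 13.6% TATAAA. Base composition differed as well: CpG dinucleotides numbered 34 in Col5a1, 16 in Serpinh1, 13 in Col1a2 and 0 in Col3a1, beside a median of 7 over all promoters. Such matches describe the sequence only.

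In untreated Pontinf/f; CreER cells Serpinh1, Pcolce and Plod2 were high and the chains were low. Per kb of exon, the level in WT was 31.9 CPM for Serpinh1, 20.5 CPM for Pcolce and 15.7 CPM for Plod2. None of the other members exceeded 0.858 CPM per kb, the level of Col5a1. The lowest was Col3a1, at 0.0692 CPM per kb, from 13 reads. The shRNA control libraries of the ZHBTc4 line had the same 3 genes on top, Pcolce at 20.6 and 19.9, Plod2 at 16.9 and 17.7, and Serpinh1 at 16.9 and 16.1 CPM per kb. The chain with the highest level in these libraries was Col5a1, at 3.98 and 2.79 CPM per kb, whereas Col1a1 was at 0.865 and 0.950 CPM per kb. The plot of the 10 genes by library shows these levels before any comparison.

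**Figure D1:**
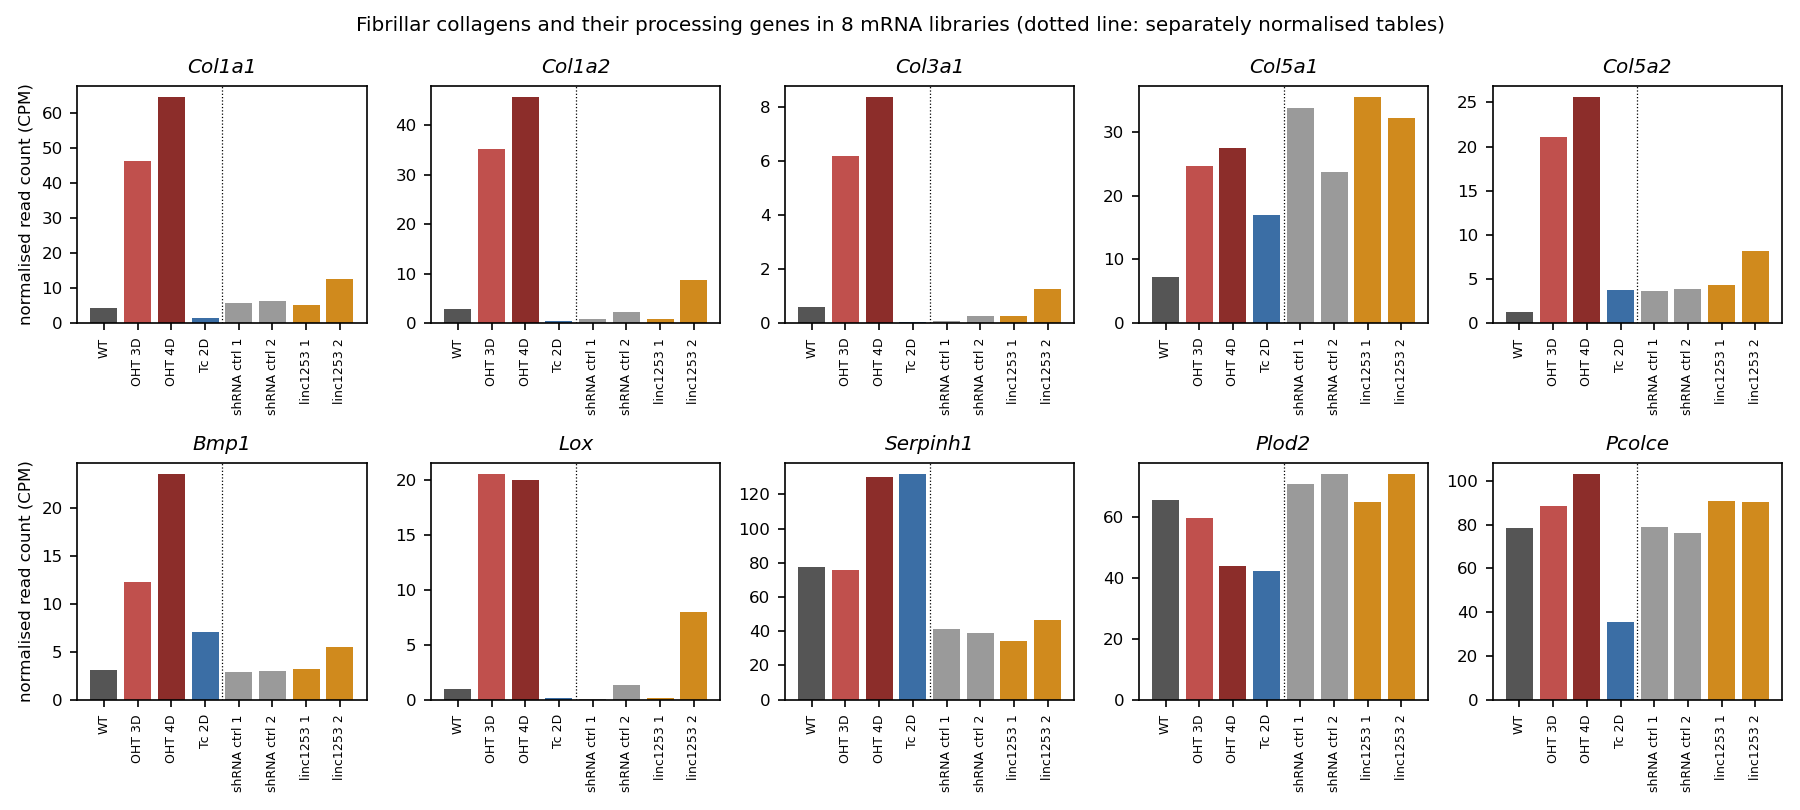
Normalised read count (CPM, linear axis from 0) of each of the 10 genes in the 8 mRNA libraries, 1 bar per library; the dotted line separates the tables that were normalised apart. Col1a1, Col1a2, Col3a1, Col5a2, Bmp1 and Lox are tallest at OHT 3D and OHT 4D. Among the ZHBTc4 libraries these genes, except Bmp1, are tallest in shRNA linc1253 replicate 2. Plod2 and Pcolce are at 42.3 CPM or more and 35.4 CPM or more in every library.

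The first comparison asked which of these genes differed after Pontin depletion. All 5 chains were higher at both time points, and so were Bmp1 and Lox. Col1a1 (chromosome 11, 94797538 to 94814356 in NCBIM37), the gene of the α1 chain of type I collagen, was at 4.20 CPM in WT, 46.5 CPM at OHT 3D and 64.6 CPM at OHT 4D. Col1a2, the gene of the α2 chain, was at 2.82 CPM in WT, 35.3 CPM at OHT 3D and 45.6 CPM at OHT 4D. Both OHT libraries were thus far above WT for both chains. The ratio to WT was 11.1 at OHT 3D (95% counting interval 8.95 to 13.8) and 15.4 at OHT 4D (12.5 to 19.1) for Col1a1. For Col1a2 it was 12.5 (9.69 to 16.5) and 16.2 (12.6 to 21.2). These intervals cover the counting of reads only, since there was 1 library per time point and no replicate check. In such bulk libraries, a change in the number of cells of a type and a change in RNA per cell cannot be told apart. No library had OHT without floxed Pontin alleles, or vehicle for the same days. Loss of Pontin, OHT itself, CreER activation and days in culture therefore cannot be told apart.

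Type III and type V collagen genes were also higher after OHT, with type V chains unequal. Col3a1, the single chain of type III collagen, was at 0.581 CPM in WT, 6.20 CPM at OHT 3D and 8.37 CPM at OHT 4D, ratios of 10.7 (6.03 to 20.5) and 14.4 (8.22 to 27.5). Col5a2, its neighbour on chromosome 1 on the opposite strand, was at 1.30 CPM in WT, 21.0 CPM at OHT 3D and 25.6 CPM at OHT 4D, ratios of 16.2 (11.1 to 24.5) and 19.7 (13.6 to 29.7). Col5a1, the other type V chain, started higher, at 7.29 CPM in WT, and was at 24.7 CPM at OHT 3D and 27.5 CPM at OHT 4D. Its ratios of 3.39 (2.84 to 4.06) and 3.78 (3.17 to 4.51) had intervals that did not overlap those of Col5a2. The 5 chains together summed to 16.2 CPM in WT, 134 CPM at OHT 3D and 172 CPM at OHT 4D.

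Among the genes that act outside the cell, Lox and Bmp1 passed the limit and Pcolce did not. Lox was at 0.939 CPM in WT, 20.6 CPM at OHT 3D and 19.98 CPM at OHT 4D. Its ratio at OHT 3D, 21.9 (14.2 to 35.8), was the largest of the 10, although the interval overlapped those of Col5a2, Col3a1 and Col1a2. Bmp1 was at 3.04 CPM in WT, 12.3 CPM at OHT 3D and 23.6 CPM at OHT 4D, ratios of 4.03 (3.08 to 5.34) and 7.75 (6.02 to 10.1). Pcolce was at 78.3 CPM in WT, 88.7 CPM at OHT 3D and 103 CPM at OHT 4D. The Pcolce ratios of 1.13 (1.06 to 1.21) and 1.32 (1.24 to 1.40) were beyond counting error but under the limit, at log2-fold-changes of 0.18 and 0.40.

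The genes that act inside the secretory pathway did not follow the chains. Serpinh1 was at 77.8 CPM in WT, 75.9 CPM at OHT 3D and 130 CPM at OHT 4D. It was therefore level with WT at 3 days, with a ratio of 0.976 (0.912 to 1.04), and higher at 4 days, with a ratio of 1.67 (1.58 to 1.78). Plod2 was at 65.6 CPM in WT, 59.5 CPM at OHT 3D and 43.9 CPM at OHT 4D, and was the one member below WT at both times.

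On the scale used for calls, the difference in log2(CPM + 1) with a limit of 0.58, 7 of the 10 genes were higher at OHT 3D and none was lower. Over all 13449 genes tested, 6.01% were called higher and 5.88% lower. A gene was tested if it exceeded 1 CPM in any library of the table. A gene at or under 1 CPM in WT thus passed only through a library where it was higher. Among the members this holds for Col3a1 and Lox. Of the 8 members above 1 CPM in WT, 5 were higher at OHT 3D and 6 at OHT 4D, and 0 were lower at either. At OHT 4D, 8 of the 10 were higher, with Serpinh1 added, and none was lower, beside 6.48% of all genes called higher and 8.89% lower. Nearest the limit at OHT 4D were Serpinh1, past it at a log2-fold-change of 0.73, and Plod2, not past it at -0.57. The median log2-fold-change of the 10 was 1.95 at OHT 3D and 2.59 at OHT 4D, beside -0.02 and 0.00 over all genes. The plot of log2-fold-changes shows all 10. The Tc 2D comparison below shares the WT library with these.

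**Figure D2:**
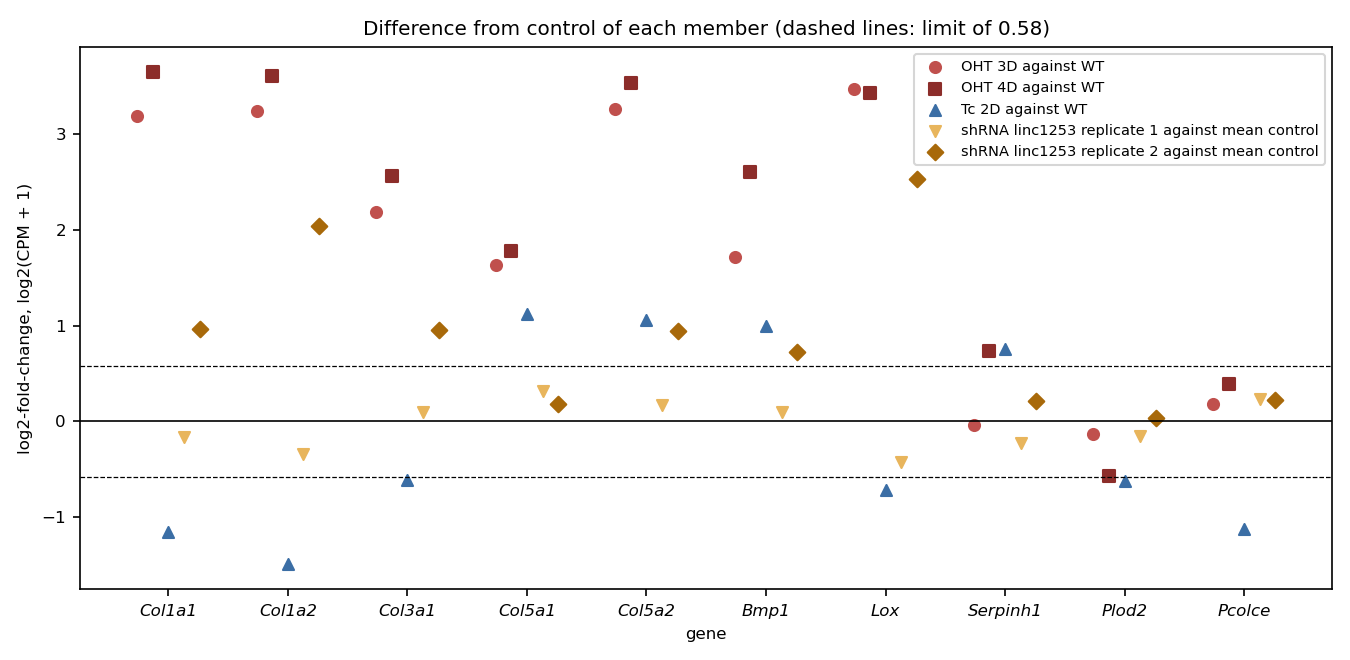
Log2-fold-change of each gene on the log2(CPM + 1) scale, 1 point per library against its control (WT, or the mean of the 2 shRNA control libraries), with dashed lines at the limit of 0.58 in either direction. Circles and squares (OHT 3D and OHT 4D) lie above 1.6 for the 5 chains, Bmp1 and Lox, whereas Plod2 lies below 0 in both. For 8 of the 10 genes shRNA linc1253 replicate 2 (diamonds) lies above replicate 1. The share of all genes for which it does so was not counted, so whether 8 is unusual cannot be said.

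Between 3 and 4 days after OHT the members moved differently. Bmp1 was 1.92 times as high at OHT 4D as at OHT 3D (1.66 to 2.23), and Serpinh1 1.71 times as high (1.61 to 1.82). Col1a1 differed by a ratio of 1.39 (1.28 to 1.51) and Col1a2 by 1.29 (1.18 to 1.42). Lox was at the same level, with a ratio of 0.970 (0.850 to 1.11), and so was Col5a1 within counting error, with a ratio of 1.11 (0.991 to 1.25). Plod2 was lower at OHT 4D, with a ratio of 0.738 (0.679 to 0.802).

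Other genes of the collagen pathway were counted from lists that do not hold the 10 members. Of 16 tested genes of collagen modification and folding, 1 was higher and 1 lower at OHT 3D, and 2 were higher and 0 lower at OHT 4D. Of the 14 above 1 CPM in WT, 0 were higher and 1 lower at OHT 3D, and 1 higher and 0 lower at OHT 4D. The most highly expressed of these, P4hb, a subunit of prolyl 4-hydroxylase, was at 372 CPM in WT, 355 CPM at OHT 3D and 437 CPM at OHT 4D. Colgalt1, a collagen galactosyltransferase, was at 97.0, 94.1 and 94.9 CPM in the same libraries. Ppib, a prolyl isomerase, was at 42.5, 37.0 and 52.9 CPM, and Crtap, a partner of prolyl 3-hydroxylase, at 59.2, 58.8 and 76.3 CPM. None of these 4 passed the limit at either time.

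Of 9 tested genes of procollagen cleavage and cross-linking, 4 were higher at OHT 3D and 4 at OHT 4D, and 0 were lower at either. Of the 5 above 1 CPM in WT, 2 were higher at each time. Among the 4 with the highest mean level, Loxl1, a lysyl oxidase paralogue, was at 4.74 CPM in WT, 9.46 CPM at OHT 3D and 11.5 CPM at OHT 4D. Loxl2 was at 31.0, 32.0 and 32.5 CPM, Pcolce2 at 21.1, 21.1 and 23.9 CPM, and Adamts14, which cuts N-terminal propeptides, at 25.8, 22.5 and 18.4 CPM. Those 3 stayed within the limit. Of 14 listed fibril-associated matrix genes 9 were tested, of which 7 were higher at OHT 3D and 8 at OHT 4D, with 0 lower. Of these 9, 4 were at or under 1 CPM in WT; of the other 5, 3 were higher at OHT 3D and 4 at OHT 4D. Bgn, which encodes the proteoglycan biglycan, was at 2.91 CPM in WT and 41.7 and 41.8 CPM at OHT 3D and OHT 4D. Thbs1, encoding thrombospondin 1, was at 13.7, 154 and 136 CPM. Fn1, encoding fibronectin, was within the limit in both, at 794 CPM in WT, 642 CPM at OHT 3D and 556 CPM at OHT 4D, and Sparc, a collagen-binding matrix protein, was at 208, 273 and 401 CPM, past the limit at OHT 4D. Of 10 tested genes of collagen turnover and receptors, 4 and 5 were higher at OHT 3D and OHT 4D and 0 were lower; of the 7 above 1 CPM in WT, 2 were higher at each time. Mmp14, a membrane collagenase, was at 34.9, 43.6 and 59.3 CPM, and the collagen receptor Ddr1 at 47.4, 45.4 and 52.8 CPM.

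The other fibrillar collagens, which are known from cartilage and a few other tissues, differed little: of 4 tested, 0 were higher at OHT 3D and 1, Col11a1, at OHT 4D. Col11a1 was at 2.73 CPM in WT, 3.30 CPM at OHT 3D and 4.77 CPM at OHT 4D, and Col2a1 was at 5.95, 5.20 and 5.83 CPM. Of 17 tested hypoxia-response genes, 1 was higher and 11 lower at OHT 3D, and 1 was higher and 7 lower at OHT 4D. Of the 15 above 1 CPM in WT, 0 were higher at either time. Plod2 and Lox are known hypoxia targets, and in these libraries Plod2 was below WT and Lox above it. Pgk1, a glycolytic enzyme of that list, was at 1128 CPM in WT, 654 CPM at OHT 3D and 838 CPM at OHT 4D.

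**Figure D3:**
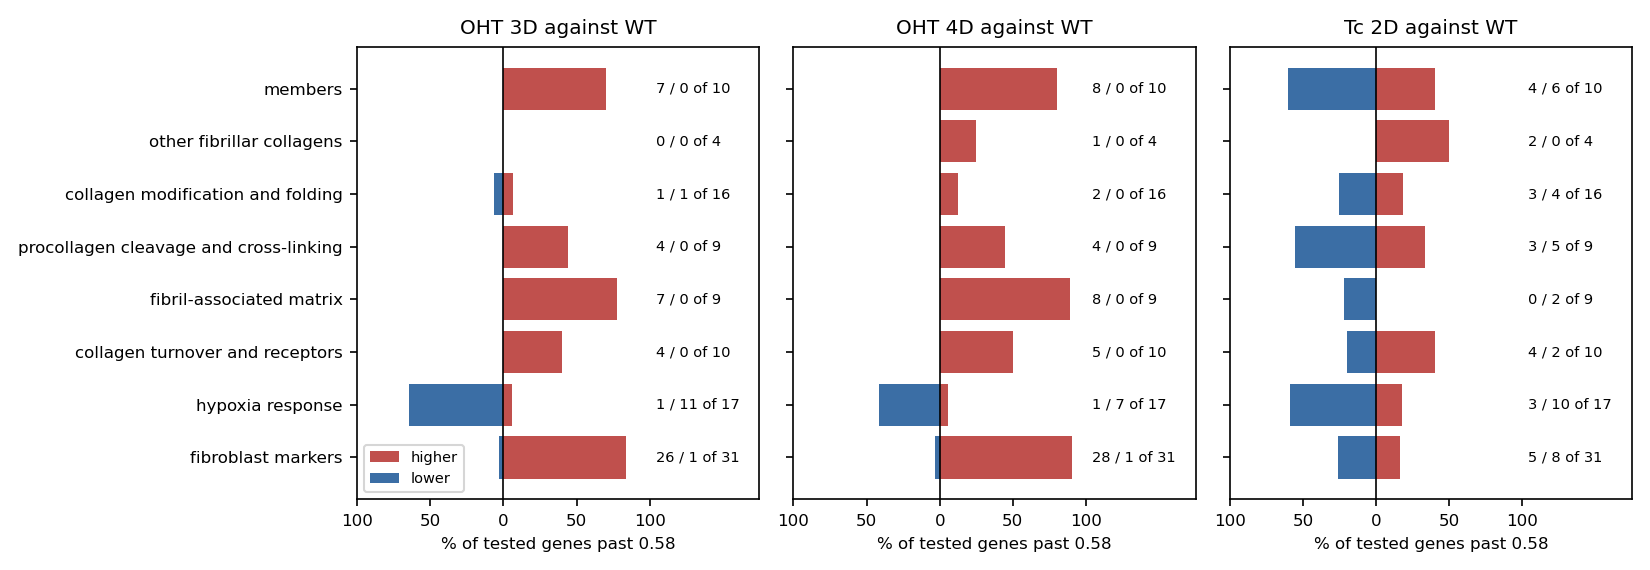
Share of the tested genes of each list (percent) called higher (right) or lower (left) than WT at a log2-fold-change limit of 0.58, with the numbers higher / lower of tested at the right. The fibril-associated and fibroblast lists share 9 genes. Some genes were at or under 1 CPM in WT, and so tested only through a library in which they were higher. These were 13 of the 31 fibroblast markers, 4 of the 9 fibril-associated genes and 2 of the 10 members. Also among them were 4 of the 9 cleavage and cross-linking genes and 3 of the 10 turnover and receptor genes. The rest were 2 of the 16 modification and folding genes, 2 of the 17 hypoxia-response genes and 1 of the 4 other fibrillar collagens. The genes of collagen modification and folding are mostly within the limit.

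Many markers of fibroblasts were higher in the same libraries as the collagens. Of 35 fibroblast markers, 18 were above 1 CPM in WT and 31 at each of OHT 3D and OHT 4D. Of 31 tested, 26 were higher and 1 lower at OHT 3D, and 28 were higher and 1 lower at OHT 4D. Among the 18 above 1 CPM in WT, which did not need another library to be tested, 13 were higher and 1 lower at OHT 3D, and 15 were higher and 1 lower at OHT 4D. Their summed level was 1190 CPM in WT, 1616 CPM at OHT 3D and 1749 CPM at OHT 4D, most of it from Fn1 and Sparc. Without those genes the sum was 188 CPM in WT, 702 CPM at OHT 3D and 792 CPM at OHT 4D. Vim, a mesenchymal filament gene, was at 34.1, 109 and 134 CPM, and Fbln1, a matrix gene, was lower after OHT, at 65.2, 35.6 and 39.0 CPM. Of the 8 defining markers, 1, Thy1, was above 1 CPM in WT, and it was higher at both times; 4 others were tested only through libraries in which they were higher. Postn was at 0.492 CPM in WT and 7.33 and 8.63 CPM at OHT 3D and OHT 4D, Prrx1 at 0.224, 4.84 and 2.93 CPM, and Thy1 at 9.25, 14.9 and 20.2 CPM. The defining markers Lum and Fap were at 0 in WT and OHT 3D, and Dcn, a main product of fibroblasts, was at 0.134, 0.498 and 0.832 CPM in WT, OHT 3D and OHT 4D. The part of fibroblast feeders in the collagen values was not tested. Of 10 primitive endoderm markers above 1 CPM in WT, 5 were higher at OHT 3D and 7 at OHT 4D, and 0 were lower; over all 13 tested, 6 and 10 were higher. Of 8 trophectoderm markers above 1 CPM in WT, 3 were higher and 1 lower at OHT 3D, and 5 were higher and 0 lower at OHT 4D; over all 12 tested, 7 and 9 were higher. Of 5 tested mesoderm markers, 1 was above 1 CPM in WT and was lower at OHT 3D; of the other 4, 1 was higher at OHT 3D and 2 at OHT 4D. Of 18 pluripotency markers, 0 were higher and 1 lower at OHT 3D, and 1 was higher and 1 lower at OHT 4D.

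**Figure D4:**
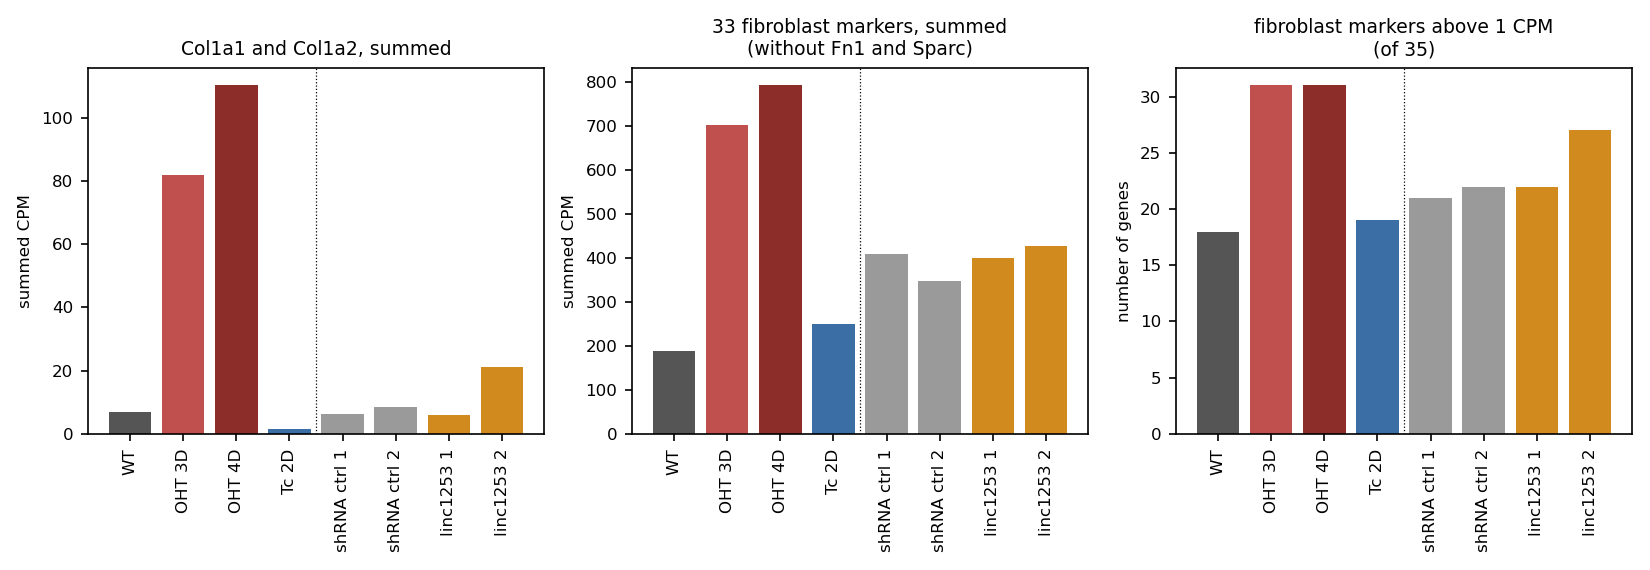
Left, summed CPM of Col1a1 and Col1a2 in each library; middle, summed CPM of 33 fibroblast markers without Fn1 and Sparc; right, number of 35 fibroblast markers above 1 CPM. The type I collagen sum runs from 1.69 CPM at Tc 2D to 110.2 CPM at OHT 4D, and shRNA linc1253 replicate 2, at 21.3 CPM, stands above the other 3 shRNA libraries (6.06 to 8.47 CPM).

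The second comparison asked how the same genes stood after Oct4 depletion, and there the members divided. Against WT, 4 of the 10 were higher and 6 lower at Tc 2D, in a comparison in which 23.9% of all genes were called higher and 25.8% lower. The WT library is of the Pontinf/f; CreER line, so line and depletion cannot be told apart. Type I collagen was low at Tc 2D, with Col1a1 at 1.34 CPM against 4.20 CPM in WT, a ratio of 0.319 (0.213 to 0.469). Col1a2 was at 0.352 CPM, from 10 reads, against 2.82 CPM in WT. Col1a1 was also below both shRNA control libraries, which were at 5.67 and 6.24 CPM. For Col1a2, which was at 0.738 and 2.24 CPM there, the ratio was 0.477 (0.194 to 1.12) to control replicate 1, not beyond counting error, and 0.158 (0.0714 to 0.313) to control replicate 2. Col3a1 had 1 read at Tc 2D and 13 in WT, a ratio of 0.0606 (0.00143 to 0.404), and Lox had 5 and 21 reads, a ratio of 0.188 (0.0553 to 0.511). These low genes lie close to the limit on the log2(CPM + 1) scale, at -0.61 for Col3a1 and -0.72 for Lox.

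Type V collagen, Bmp1 and Serpinh1 were higher than WT at Tc 2D. Serpinh1 was at 132 CPM, a ratio of 1.70 to WT (1.60 to 1.80). Bmp1 was at 7.05 CPM, a ratio of 2.32 (1.75 to 3.10). Col5a1 was at 17.1 CPM and Col5a2 at 3.77 CPM, ratios of 2.34 (1.96 to 2.81) and 2.91 (1.91 to 4.55). Pcolce was lower than WT, at 35.4 CPM, a ratio of 0.452 (0.418 to 0.489), and Plod2 was at 42.3 CPM, a ratio of 0.644 (0.596 to 0.696).

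With the ZHBTc4 shRNA control libraries in place of WT, some of these directions changed. The control libraries are of the same line but infected, normalised apart and sequenced on a different instrument model. Col5a1 at Tc 2D was below the control libraries, which were at 33.8 and 23.7 CPM, and Col5a2 was level with them, at 3.64 and 3.87 CPM. Serpinh1 was further above them, since they were at 41.1 and 39.2 CPM, ratios of 3.21 (2.98 to 3.46) and 3.37 (3.13 to 3.62). Bmp1 was above them by ratios of 2.46 (1.84 to 3.33) and 2.38 (1.80 to 3.17). Pcolce and Plod2 were below both control libraries, and so was Col1a1. Col3a1 was no longer past the limit, at log2-fold-changes of -0.08 and -0.28, with 2 and 6 reads in the control libraries. Lox was above control replicate 1, which had 1 read, and below control replicate 2, which had 30. The number of members called higher was thus 2 with either control library, in place of 4, both being Bmp1 and Serpinh1. The number called lower was 4 with control replicate 1 and 5 with control replicate 2, in place of 6. Over all 13449 genes, 18.7% were called higher and 28.7% lower with control replicate 1, and 19.1% and 28.9% with control replicate 2.

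Of the pathway lists at Tc 2D, the modification and folding genes had 3 of 16 higher and 4 lower. The cleavage and cross-linking genes had 3 of 9 higher and 5 lower. Over all genes, 23.9% were called higher and 25.8% lower than WT. Loxl2 was at 1.23 CPM against 31.0 CPM in WT, and Pcolce2 at 2.85 CPM against 21.1 CPM. Of 9 fibril-associated genes, 0 were higher and 2 lower, with Thbs1 at 2.68 CPM and Fn1 at 515 CPM. Among turnover and receptor genes, 4 of 10 were higher and 2 lower, with Mmp14 at 4.79 CPM and Ddr1 at 80.5 CPM. Of the other fibrillar collagens, 2 of 4 were higher, Col11a1 at 16.2 CPM and Col11a2 at 6.84 CPM. Col11a2 was at 0.536, 0.860 and 0.876 CPM in WT, OHT 3D and OHT 4D, so it was tested only through Tc 2D. Of 17 hypoxia-response genes, 3 were higher and 10 lower. Genes at or under 1 CPM in WT were again tested only through a library in which they were higher. These were 2 of the 16 modification and folding genes, 4 of the 9 cleavage and cross-linking genes and 4 of the 9 fibril-associated genes. Also among them were 3 of the 10 turnover and receptor genes and 2 of the 17 hypoxia-response genes.

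The fibroblast markers at Tc 2D had 5 of 31 higher and 8 lower, beside 23.9% and 25.8% of all genes. Their sum without Fn1 and Sparc was 250.1 CPM, above the 188 CPM of WT and below the 408 and 347 CPM of the shRNA control libraries. The defining markers Dcn, Lum and Postn were at 0 at Tc 2D, where a count of 0 allows up to 0.106 CPM, whereas Pdgfrb was at 25.1 CPM. Of 12 trophectoderm markers, 10 were higher and 0 lower, and of 13 primitive endoderm markers 7 were higher and 1 lower. Of 5 mesoderm markers 4 were higher, and of 18 pluripotency markers 1 was higher and 16 lower. Markers at or under 1 CPM in WT were tested only through a library in which they were higher. These were 4 of the trophectoderm, 3 of the primitive endoderm, 4 of the mesoderm and 13 of the fibroblast markers.

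The third comparison asked what knockdown of linc1253 did, with 2 libraries per group. No member was called by limma at an adjusted p under 0.05, in either direction, and 0% of all 13407 genes were. At an unadjusted p under 0.05, limma gave 496 genes higher and 503 lower, and 1 member, Pcolce. The edgeR exact test called 38 genes higher and 42 lower and DESeq2 22 and 28, with no member among them, although DESeq2 gave no adjusted p for 4 members. The edgeR quasi-likelihood test called 0 genes. None of these fits took the replicate number into account. A limma fit that did called 5 members higher, among 933 genes higher and 1027 lower, and is described with the processing checks at the end. The labels do not say that the replicates came from separate cultures, so the p-values measure the spread between these libraries only.

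Replicate libraries of both groups differed from each other in Lox and Col1a2. The control libraries did not differ beyond counting error in Col1a1, Col3a1 or Col5a2. Lox was at 0.0461 and 1.29 CPM in the control libraries, and at 0.155 and 7.98 CPM in knockdown replicates 1 and 2. Col1a2 was at 0.738 and 2.24 CPM in the controls, and at 0.876 and 8.77 CPM in the knockdown. In both genes replicate 1 of the knockdown lay between the control libraries and replicate 2 above them. The limma log2-fold-change of Lox was 1.06 ± 0.91 (SE; adjusted p = 0.815) and that of Col1a2 was 0.85 ± 0.73 (SE; limma adjusted p = 0.815). Without knockdown replicate 1 the limma adjusted p was 0.0126 for both, with log2-fold-changes of 2.54 and 2.04. Without knockdown replicate 2 the direction turned, to -0.42 for Lox and -0.34 for Col1a2.

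Col1a1 was at 5.67 and 6.24 CPM in the controls, and at 5.18 and 12.5 CPM in the knockdown. Col3a1, with 29 reads or fewer in every shRNA library, was at 0.0923 and 0.258 CPM in the controls and 0.258 and 1.27 CPM in the knockdown. Replicate 2 was again the high library in both genes. It exceeded each of the other 3 shRNA libraries beyond counting error in 7 members, Col1a1, Col1a2, Col3a1, Col5a2, Bmp1, Lox and Serpinh1. The share of all genes that did so was not counted, so whether 7 members is unusual cannot be said. Lox was 51.6 times as high in knockdown replicate 2 as in replicate 1 (23.3 to 142), from 182 and 6 reads, and Col1a2 10.01 times (6.93 to 14.9). Control replicate 2 was above control replicate 1 in the same genes, by 27.97 times in Lox (4.65 to 1141), from 30 reads and 1, and by 3.03 times in Col1a2 (1.70 to 5.69).

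In 3 members both knockdown libraries lay above both controls, beside 18.8% of all genes. Pcolce was at 78.9 and 76.0 CPM in the controls and 90.9 and 90.3 CPM in the knockdown, a limma log2-fold-change of 0.22 ± 0.09 (SE; adjusted p = 0.645). Col5a2 was at 3.64 and 3.87 CPM in the controls and 4.36 and 8.16 CPM in the knockdown, with an adjusted p by limma of 0.695. Bmp1 was at 2.86 and 2.97 CPM in the controls and 3.20 and 5.48 CPM in the knockdown, with an adjusted p by limma of 0.722. Serpinh1, Plod2 and Col5a1 had overlapping groups. Serpinh1 averaged 40.2 ± 1.33 CPM in the controls and 40.4 ± 8.73 CPM in the knockdown (SD, n = 2), Plod2 72.4 ± 2.30 and 69.4 ± 6.57 CPM, and Col5a1 28.7 ± 7.12 and 33.9 ± 2.30 CPM. None of the 10 had both knockdown libraries below both controls, beside 19.2% of all genes.

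Several fibroblast markers, but not all, were highest among the shRNA libraries in knockdown replicate 2, as were Col1a1, Col1a2, Col3a1 and Col5a2. Of 35 markers, 27 were above 1 CPM in knockdown replicate 2, 22 in replicate 1, and 21 and 22 in the controls. Postn was at 0.0461 and 0.344 CPM in the controls and at 0.0258 and 1.89 CPM in knockdown replicates 1 and 2, and Thbs1 at 2.21, 8.0, 1.98 and 30.7 CPM. Thy1, a further defining marker, was at 33.5, 27.4, 33.6 and 26.9 CPM in the same order and did not follow. Pdgfrb, also a defining marker, was at 11.9, 9.81, 9.72 and 7.54 CPM and was lowest in knockdown replicate 2. The defining marker Fap was at 0 in all 4, Lum in knockdown replicate 2, Dcn in control replicate 1 and Twist2 in control replicate 2. Summed without Fn1 and Sparc, the markers were at 408 and 347 CPM in the controls and 400 and 427 CPM in the knockdown. The 8 defining markers summed to 45.7 and 37.8 CPM in the controls and 43.6 and 36.8 CPM in the knockdown. Both knockdown libraries lay above both controls in 5 of 28 tested fibroblast markers and below in 3, and above in 5 of 12 primitive endoderm markers and below in 0. The counts above and below were 0 and 4 of 10 trophectoderm markers, 1 and 0 of 3 mesoderm markers, and 5 and 1 of 18 pluripotency markers. The part of fibroblast markers in the replicate difference was not tested. Of the pathway lists, both knockdown libraries lay above both controls in 5 of 15 modification and folding genes, 3 of 9 cleavage and cross-linking genes, 1 of 11 fibril-associated genes, 0 of 8 turnover and receptor genes and 1 of 4 other fibrillar collagens. Of 16 hypoxia-response genes, 11 had both below.

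Across the 8 libraries some members followed each other closely and others less so. The levels of Col1a1 and Col1a2 on the log2(CPM + 1) scale had a Pearson r of 0.96 over 8 libraries, Col1a2 and Col3a1 of 0.98, and Col1a2 and Lox of 0.98. Col5a2 followed Col1a1 with an r of 0.91 and Col5a1 did so with 0.33. Bmp1 had an r of 0.77 with Col1a1 and 0.73 with Serpinh1, and Pcolce had 0.70 with Col1a1. Plod2 had an r of -0.15 with Col1a1 and -0.89 with Serpinh1. The libraries share control, line and table, so these values describe 8 points that are not independent. The values also span tables that were normalised apart, from libraries run on different instrument models. The OHT libraries were the 2 highest in Col1a1, Col1a2, Col3a1, Col5a2, Bmp1 and Lox, whereas Tc 2D was the highest in Serpinh1 and the lowest in Plod2. Among 9957 genes with a mean of at least 5 CPM in both tables, the genes close to Col1a1 included Fbln2 (r = 0.99), Ehbp1l1 (0.98), Ctgf (0.98) and Anxa1 (0.97). Fbln2, a matrix gene of the fibroblast list, was at 7.06 CPM in WT, 60.4 and 63.4 CPM after OHT, 3.77 CPM at Tc 2D, 6.504 and 9.42 CPM in the shRNA controls and 7.16 and 17.5 CPM in the knockdown. The gene closest to Serpinh1 was Leprel4 (also named P3h4; r = 0.98), of the prolyl 3-hydroxylase family, followed by B4galt1, G6pc3, Sorbs3 and Chkb. Closest to Plod2 were Ncapg (r = 0.99), Mbtd1, Tmod3, Alg11 and Zfp958.

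The order of levels below sets the tables side by side although they were normalised apart and come from different instrument models. Col1a1 stood highest at OHT 4D, then at OHT 3D, then in knockdown replicate 2. Control replicate 2, control replicate 1, knockdown replicate 1 and WT followed, with no neighbours among these 4 that differed beyond counting error, and Tc 2D was lowest. Serpinh1 had another order, with Tc 2D and OHT 4D on top and not different beyond counting error (ratio 1.01, 0.967 to 1.07), WT and OHT 3D next, and the 4 shRNA libraries below. For Plod2 the order ended with OHT 4D and Tc 2D (ratio 1.04, 0.955 to 1.13).

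The balance of the type I chains also differed between libraries. Type I collagen is known to hold the α1 chain and the α2 chain in unequal numbers, α1 being the more frequent. Per kb of exon, Col1a1 was 2.76 times the level of Col1a2 in WT (1.99 to 3.86), 2.44 times at OHT 3D (2.22 to 2.68) and 2.62 times at OHT 4D (2.42 to 2.84). In knockdown replicate 2 the ratio was 2.65 (2.20 to 3.19). It was larger in the other shRNA libraries, at 14.2 (8.42 to 25.7) in control replicate 1, 5.16 (3.73 to 7.23) in control replicate 2 and 10.9 (7.58 to 16.2) in knockdown replicate 1. At Tc 2D, with 38 reads of Col1a1 and 10 of Col1a2, it was 7.03 (3.44 to 15.8). The intervals of the 4 libraries with the lowest ratios did not overlap those of the shRNA control libraries, except that those of WT and control replicate 2 overlapped. Exon lengths were taken from the annotation with all isoforms merged, so the size of each ratio rests on those lengths.

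The ChIP-seq libraries were read at the promoters of the 10 genes, over a window that began 2.5 kb before the start site and ended 500 b after it, the start site being the outermost annotated one of the gene. The Pontin library held 40729076 reads and the GFP library 17185883. All 10 promoters had reads in both. At Plod2 there were 73 Pontin reads and 10 GFP reads, and after scaling by library size the log2 ratio was 1.62 (95% counting interval 0.66 to 2.74). At Col5a1 there were 53 and 9 reads, a log2 ratio of 1.31 (0.28 to 2.52). These 2 of 10 exceeded a log2 ratio of 1, beside 14.5% of 21186 promoters. With scaling by the median ratio Col5a1 was at 0.97 and no longer exceeded it. Serpinh1 lay just under that limit, with 85 and 18 reads and a log2 ratio of 0.99 (0.25 to 1.82), above 85.3% of all promoters.

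At the promoters of the chains that were highest after OHT the ratio varied. Col1a1 had 97 Pontin and 24 GFP reads, a log2 ratio of 0.77 (0.11 to 1.48). Col1a2 had 35 and 21 reads, a log2 ratio of -0.51 (-1.33 to 0.35), which was above only 9.60% of promoters. Col3a1 was at 0.28 and Col5a2 at 0.76. Among the enzymes, Bmp1 was at 0.01 and Lox at 0.02, and Pcolce was at 0.49. The median of the 10 was 0.62 and that of all promoters 0.34. For scale, genes above 1 CPM in both shRNA control libraries had a median of 0.45 and genes at or under it 0.13. With 9 to 37 GFP reads at each promoter, the intervals of most members overlapped.

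**Figure D5:**
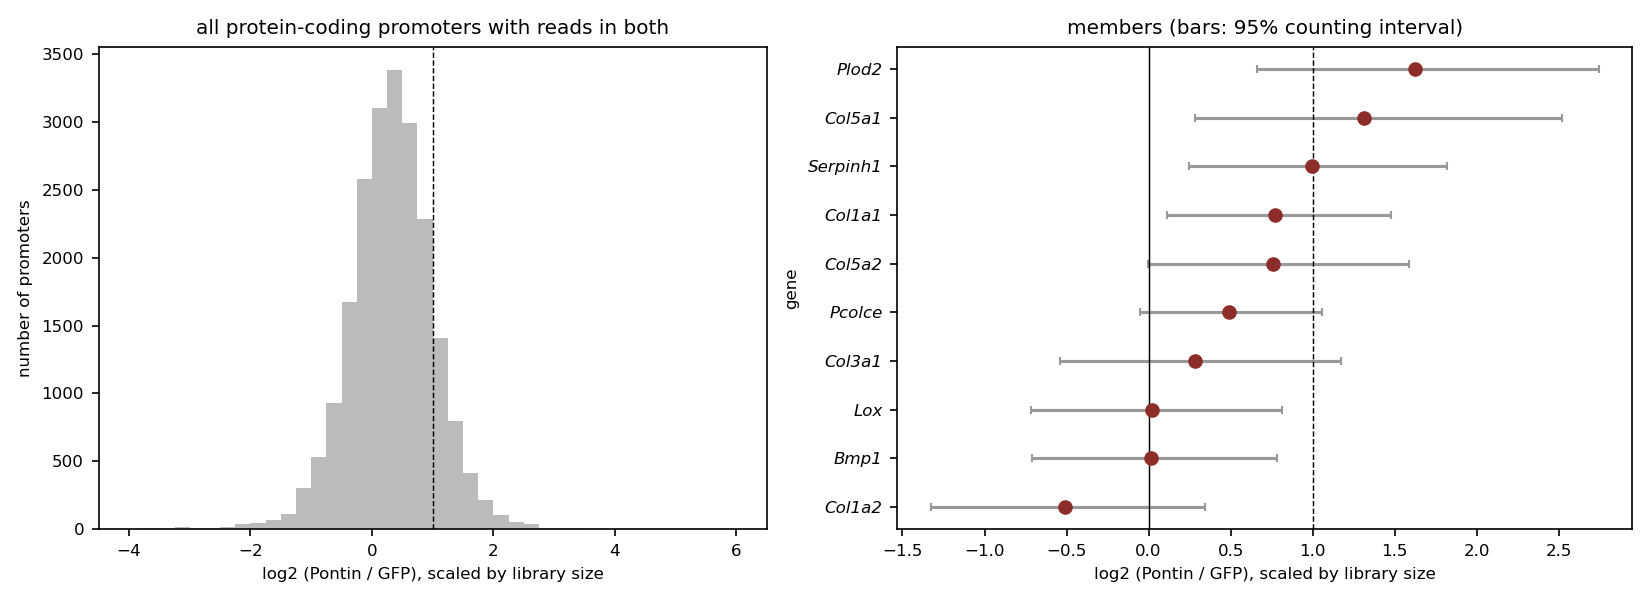
Left, number of protein-coding promoters by log2 ratio of Pontin to GFP reads after scaling by library size; right, the ratio at each of the 10 genes with its 95% counting interval. The dashed line marks a log2 ratio of 1, which Plod2 (1.62) and Col5a1 (1.31) exceed, and Col1a2 (-0.51) is the lowest.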

How the data were processed

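mRNA-sequencing values were deposited by the authors as normalised read counts (CPM) per gene: cutadapt trimmed the reads, TopHat placed them on NCBIM37, HTSeq counted them per gene and edgeR scaled the counts by TMM. Gene strand in the counting is not given in the sources used here. In each library 100% of the CPM values were multiples of what 1 read is worth, to within 0.01 read, so the reads were recovered. ChIP-seq reads were deposited as 1 line per aligned read with a mapping quality score, and repeated positions were kept.

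The 10 genes and the gene lists were chosen with earlier results of these data known. Named beside them are Ruvbl1 and Pou5f1, up to 4 genes of highest mean CPM per list, the 5 genes most correlated with Col1a1, Serpinh1 and Plod2 (1 of them is not reported here), and genes singled out after their values were seen (Col11a2, and defining markers at 0). Differences against WT were taken on log2(CPM + 1) among genes above 1 CPM in at least 1 library of that table, with a limit of 0.58. Fold changes on this scale understate low genes, so ratios of CPM with exact (Clopper-Pearson) 95% intervals from recovered reads are given; without molecular identifiers a read is not an independent molecule, and intervals and the 3 reads a count of 0 allows cover counting error only. Knockdown was tested with limma 3.58.1 (trend, Benjamini-Hochberg over all genes), with edgeR 4.0.16 and DESeq2 1.42.0 on recovered reads as alternatives. Scripts were tested on simulated data. R 4.3.3, Python 3.11.15, pandas 2.3.3 and scipy 1.17.1 were used. Places are from the NCBIM37 annotation and promoter sequences from RefSeq. The replicates of a group were compared and differed beyond sampling noise (chi-square per degree of freedom 16.9 and 16.8).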

Additional observations from a re-analysis of the deposited data

How the results depend on the processing

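The counts of members called after OHT stayed within 1.5 times of the values reported under a pseudocount of 0.5 or 3, no filter, a filter at 5 CPM, median-ratio rescaling and a log2 limit of 1. At Tc 2D a log2 limit of 1 left 2 members higher and 3 lower. A pseudocount of 3 left 4 lower, without Col3a1 (-0.24) and Lox (-0.31), and median-ratio rescaling 5, without Plod2 (-0.53). The mean of the shRNA control libraries as control left 2 higher, and on one median-ratio scale 2 higher and 3 lower. Control replicate 1 or 2 alone, chosen after seeing the data, each left 2 higher. Col5a1 then turned from 1.12 to -0.72, -0.52, -0.95 and -0.45 in that order, Col5a2 to -0.030 with control replicate 2, and Lox to 0.17 with control replicate 1. The cause was not tested.

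In the knockdown, the replicate numbers give 2 pairs and share only a number. A fit with replicate block called 5 members higher (Col1a2, Col5a1, Col5a2, Lox and Pcolce) and 0 lower, and 933 genes higher and 1027 lower; same-numbered libraries deviated together with r = 0.67 across 13407 genes. Leaving out each library in turn gave 0 to 2 members higher, the 2 being Col1a2 and Lox without knockdown replicate 1, where 16 genes in all were higher and 3 lower; a lone library is there assumed to vary like the other group. The log2-fold-change ranged over these fits from -0.17 to 0.96 for Col1a1, -0.34 to 2.04 for Col1a2, -0.42 to 2.54 for Lox, -0.22 to 0.21 for Serpinh1 and -0.16 to 0.033 for Plod2. Serpinh1, at -0.01 by limma, was at 0.0037 by edgeR quasi-likelihood, 0.0047 by the edgeR exact test and 0.0080 by DESeq2. At the promoters, scaling by the median ratio left 1 member above 1, Plod2, with Col5a1 at 0.97, and a window reaching 1 kb to each side gave 3. Low genes are limited by depth: a count of 0 allows between 0.0773 and 0.138 CPM.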
